A study of Mus musculus with 14 samples.

Results

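The genes described here were the immediate-early transcription factor genes Fos, Fosb, Jun, Junb, Atf3, Egr1, Egr2, Egr3 and Nr4a1 together with Ier2. They were chosen by name, with earlier results of these data known. Every probe carrying 1 of these symbols was taken. This gave 12 probes for 10 genes, out of 45281 probes and 19057 named genes on the array. Junb and Egr3 had 2 probes each, and the brighter of the pair was used for the gene. The measurements were log2 signals from Illumina mouse expression arrays of GFP+CD11b+ myeloid cells, a sort in which GFP marked descent from transplanted hematopoietic stem cells in the chimeric mice. Tumor-bearing mice gave PyMT brain metastases (BrM, 4 arrays), EO771 BrM (2 arrays), PyMT spleen (3 arrays) and PyMT bone marrow (1 array). Naïve mice, which carried no tumor, gave spleen (2 arrays) and bone marrow (2 arrays).

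All mice were C57Bl/6J and 14 weeks old. The tumor-bearing mice had been lethally irradiated and reconstituted with stem cells from donors that expressed GFP under the ubiquitin C promoter. Whether the naïve mice were irradiated and grafted in the same way is not given in the sources used here. The tumors grew from murine mammary cancer cells (PyMT or EO771) injected into the brain, without spread from a primary tumor. The EO771 mice yielded no viable spleen or bone marrow cells, and naïve tissue stood in for them, so tumor model and control mice could not be separated in that comparison. The bulk signals could not distinguish fewer cells of a type from less RNA per cell. Conditions with 1 or 2 arrays had little or no spread of their own, the tests pooled it over conditions, and p-values measure only the spread between these arrays.

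Immediate-early genes are switched on within minutes of a stimulus from transcription factors already present in the cell, chiefly through the MAP kinase pathway acting on serum response factor and CREB. Their products include FOS and JUN proteins, which pair through leucine zippers to form AP-1, and the EGR zinc finger factors, both of which then drive a second wave of target genes. In macrophages these factors respond to growth factors, microbial products and stress, and enzymatic dissociation of solid tissue is known to induce them too.

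The control regions of 4 of these genes are printed. Fos, Fosb and Egr2 were chosen because they were among the members with the widest differences. Nr4a1 holds the TGACG core and the EGR site, and its dim probe did not pass the test. Each line holds the 250 bases before a listed transcription start from RefSeq (GRCm38.p6), 5′ to 3′ on the strand of the gene, and RefSeq promoter sequence was matched for 7 of the 10 genes. For Egr2, which has 5 listed starts, the middle one is shown. Capitals mark the CREB-binding core TGACG, the EGR site GCGNGGGCG and the CArG box, the binding site of serum response factor, each searched on both strands.
Fos, chr12:85473640-85473889, plus strand: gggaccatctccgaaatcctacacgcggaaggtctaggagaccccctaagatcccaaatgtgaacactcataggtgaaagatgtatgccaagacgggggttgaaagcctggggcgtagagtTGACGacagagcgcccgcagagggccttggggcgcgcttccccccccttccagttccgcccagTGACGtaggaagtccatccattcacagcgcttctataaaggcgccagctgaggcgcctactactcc
Fosb, chr7:19310046-19310295, minus strand: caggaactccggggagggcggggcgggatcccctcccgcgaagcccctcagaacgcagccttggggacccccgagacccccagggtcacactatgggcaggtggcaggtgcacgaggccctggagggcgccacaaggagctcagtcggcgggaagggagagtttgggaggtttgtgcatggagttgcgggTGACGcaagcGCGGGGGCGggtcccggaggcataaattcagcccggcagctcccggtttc
Egr2, chr10:67537619-67537868, plus strand: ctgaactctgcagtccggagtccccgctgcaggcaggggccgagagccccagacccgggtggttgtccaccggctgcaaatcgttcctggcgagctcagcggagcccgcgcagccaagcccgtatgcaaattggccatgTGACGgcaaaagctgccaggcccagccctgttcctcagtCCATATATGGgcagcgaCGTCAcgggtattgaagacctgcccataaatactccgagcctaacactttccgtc
Nr4a1, chr15:101266596-101266845, plus strand: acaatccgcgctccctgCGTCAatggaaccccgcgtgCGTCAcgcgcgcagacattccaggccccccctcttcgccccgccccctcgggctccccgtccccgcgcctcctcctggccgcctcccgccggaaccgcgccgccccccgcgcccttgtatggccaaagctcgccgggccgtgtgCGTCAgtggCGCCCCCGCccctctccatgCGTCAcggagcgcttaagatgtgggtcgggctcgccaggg

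The core TGACG, or its reverse complement, was present in 6 of the 7 member promoters, all but that of Jun, against 17.8% of all 32851 promoter windows of the same length. Fos held it 129 and 66 bases before the start, Egr2 111 and 55 bases before, Fosb once at 60 bases, and Nr4a1 at 4 positions. The CArG box was found in Egr2 alone of the 7, 72 bases before the start, and in 1.47% of all windows. The EGR site occurred in Fosb and Nr4a1 and in 4.7% of all windows, and it overlapped no other marked motif. The AP-1 site TGANTCA was in none of the 7 windows and in 6.75% of all windows. A match describes the letters only. Promoters with matching letters belonged both to members that rose and to Nr4a1, which did not pass the test. Its signals lay near or below the array median, where signal over background is small, so a rise could be missed.

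All arrays shared the same distribution after the authors' normalization, with a median of 4.06 and an upper quartile of 5.70 on the log2 scale, and levels of different probes cannot be compared with each other. PyMT spleen 2 stood apart. After centring each probe, it correlated at 0.85 with PyMT bone marrow and at 0.10 and -0.02 with the other PyMT spleens over 11145 bright probes. Its mean over 19 neutrophil markers was 12.51, just above the bone marrow range of 12.40 to 12.46, while the other PyMT spleens had 11.37 and 10.90. Naïve bone marrow 1 and 2 were the closest pair in the data (root mean square difference 0.17) and their codes share a stem, so they may not be separate mice. The code of EO771 BrM 2 names 2 numbers, and whether mice were pooled is not given in the sources used here. The study's methods count 4 PyMT spleens, of which 3 were analysed here.

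Levels of cell type markers differed between tissues as well. Over 18 macrophage markers, the mean signal was 9.98 to 10.34 in BrM and 7.76 to 9.71 in spleen/bone marrow. Over the 19 neutrophil markers it was 6.40 to 8.64 in BrM and 10.90 to 12.51 in spleen/bone marrow. Of these markers 10 of 18 and 0 of 19 were higher in BrM, and 0 of 18 and 17 of 19 were lower. By the same limma test against spleen/bone marrow, at an adjusted p under 0.01, 4.89% of all genes were higher and 4.13% lower. Of 4 genes tied to the sorted population, Itgam (CD11b), Ptprc, Itgb2 and Spi1, none passed the test. Macrophage and neutrophil markers moved with the differences between BrM and the other tissues, and their part in these was not tested.

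To see which immediate-early genes differed in BrM-infiltrating cells, the 6 BrM arrays were compared with the 8 spleen/bone marrow arrays using limma, and a gene was called at an adjusted p under 0.01 over all probes. In BrM 7 members rose: Fosb, Egr1, Fos, Egr2, Atf3, Jun and Junb. That is 7 of 10, where 4.89% of all genes were higher by the same test. The members were chosen with earlier results of these data known, so the counts only describe these genes. No member fell, where 4.13% of all genes were lower, and Ier2, Egr3 and Nr4a1 did not pass. The median difference of the 10 members was 2.86 log2 units, compared with -0.01 over all genes. For 5 members, Fos, Fosb, Jun, Egr1 and Egr2, all 6 BrM arrays lay above all 8 others, an arrangement found for 4.25% of all genes.

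**Figure D1:**
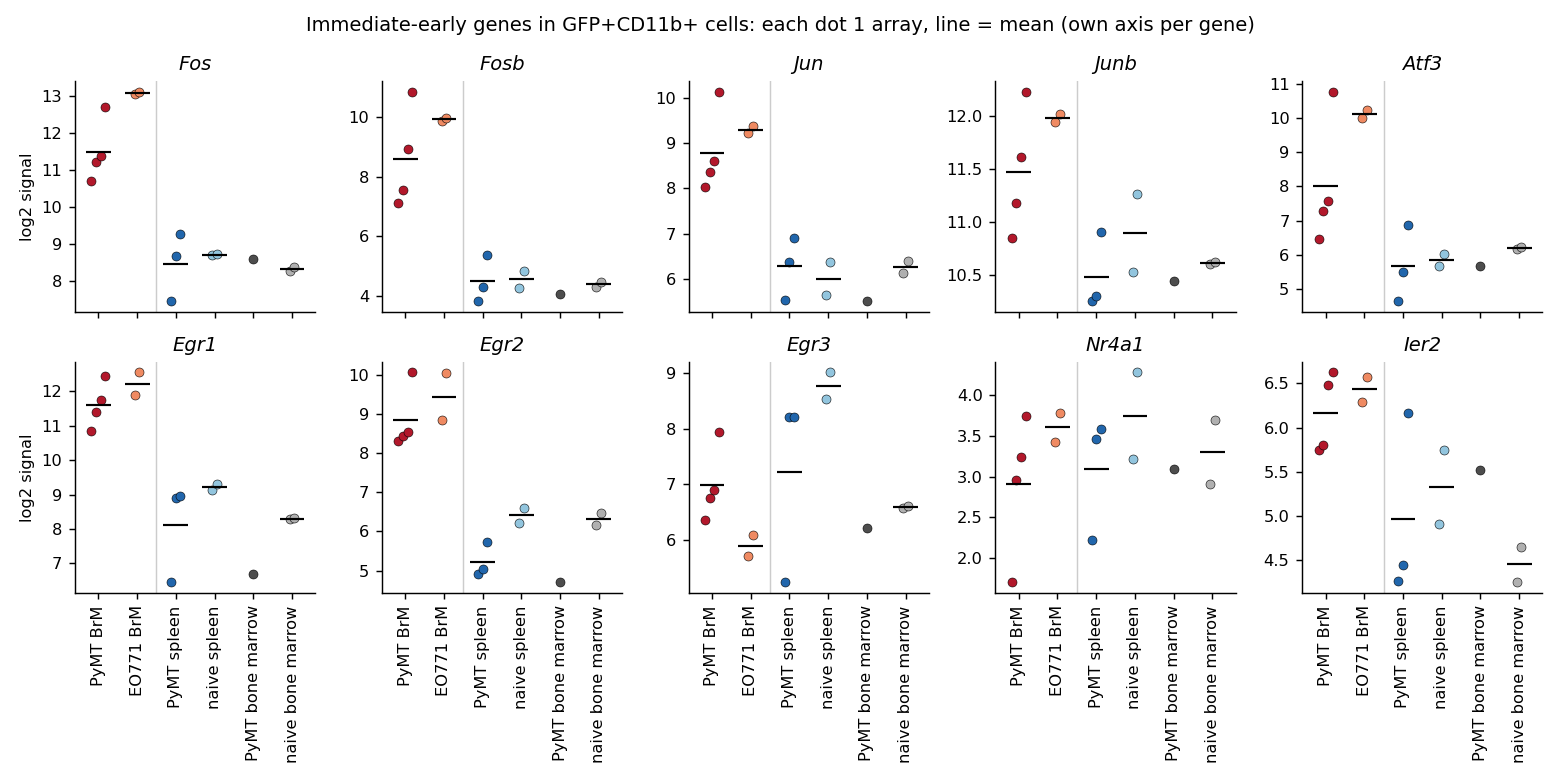
Log2 signal (vertical axis, its own range for each gene) of the 10 genes on each array, by condition, with BrM to the left of the grey line; dots are arrays and lines are means. Fos, Fosb, Jun, Egr1 and Egr2 do not overlap between BrM and the other tissues, while Egr3 is highest in 4 of the 5 spleens and Nr4a1 lies near or below the array median of 4.06.

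Fos, the core partner of JUN proteins in AP-1, gave log2 signals of 12.68, 11.20, 10.70 and 11.35 in PyMT BrM 1 to 4 and 13.03 and 13.11 in EO771 BrM. The spleen/bone marrow arrays had a lowest value of 7.45, a median of 8.63 and a highest value of 9.25. Even the lowest BrM array lay more than 1 log2 unit above the highest of the others, and both EO771 BrM exceeded all PyMT BrM. The mean was 12.01 ± 1.05 in BrM (SD, n = 6) and 8.50 ± 0.52 in spleen/bone marrow (SD, n = 8). The difference of 3.51 (SE 0.39), or 11.4-fold, passed the limma test (adjusted p = 1.47e-05). Within every array of BrM, Fos stood between the 97.5th and the 99.7th percentile of probes.

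Fosb, a FOS relative that also dimerizes with JUN proteins, had the widest difference of the 10. Its signals were 10.85, 8.92, 7.10 and 7.54 in PyMT BrM 1 to 4 and 9.97 and 9.87 in EO771 BrM. In spleen/bone marrow they ranged from 3.82 through a median of 4.29 to 5.37, near the median of all probes. The groups did not overlap, and within PyMT BrM replicate 1 was far above replicates 3 and 4. The difference was 4.62 log2 units (SE 0.49) with a limma adjusted p of 1.12e-05, and no fold is given because spleen/bone marrow lay where signal over background is small.

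Jun, the founding JUN subunit of AP-1 and itself an AP-1 target, measured 10.14, 8.03, 8.36 and 8.60 in PyMT BrM 1 to 4 and 9.23 and 9.37 in EO771 BrM. Spleen/bone marrow arrays lay between 5.51 and 6.91, with a median of 6.25. The groups did not overlap, and PyMT BrM 1 was again the highest array. The limma difference was 2.84 (SE 0.32), or 7.18-fold (adjusted p = 1.73e-05).

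Junb, a JUN family member that can replace or oppose JUN in AP-1 dimers, was bright everywhere. It read 12.23, 11.61, 11.18 and 10.85 in PyMT BrM 1 to 4 and 12.02 and 11.94 in EO771 BrM, against 10.25 to 11.27 (median 10.57) in spleen/bone marrow. Here 4 of 6 BrM arrays exceeded all others, and PyMT BrM 3 and 4 fell within the range of the controls, below naïve spleen 2. The difference of 1.02 (SE 0.23), or 2.03-fold, passed narrowly (limma adjusted p = 0.00743). The call was lost on leaving out any of 10 of the 14 arrays in turn, with the adjusted p reaching 0.0228 without PyMT BrM 1. It stood only without PyMT BrM 3, PyMT BrM 4, PyMT spleen 1 or naïve spleen 2. The second Junb probe was dim in both groups, at 3.70 ± 0.47 in BrM (SD, n = 6) and 3.36 ± 0.91 in spleen/bone marrow (SD, n = 8), and did not pass (difference 0.33, limma adjusted p = 0.683).

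Atf3, a stress-induced bZIP factor that pairs with JUN proteins and represses inflammatory genes in macrophages, varied most within BrM. PyMT BrM 1 stood at 10.78, PyMT BrM 2 to 4 at 7.59, 7.28 and 6.45, and both EO771 BrM at 10.23 and 10.02. The spleen/bone marrow arrays ran from 4.64 through 5.84 to 6.88. PyMT BrM 4 lay below PyMT spleen 3, the only overlap. The difference was 2.88 (SE 0.61), or 7.35-fold (limma adjusted p = 0.00431). It no longer passed without EO771 BrM 1 (adjusted p = 0.0122), EO771 BrM 2 (0.0129) or PyMT BrM 1 (0.0116), although the difference stayed at 2.47 or more.

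Egr1, the zinc finger factor induced most widely by growth signals, measured 12.44, 11.74, 10.83 and 11.41 in PyMT BrM 1 to 4 and 12.55 and 11.88 in EO771 BrM. The controls ranged from 6.45 in PyMT spleen 2 to 9.32 in naïve spleen 2, with a median of 8.60. All BrM arrays lay above all others, and among the controls PyMT spleen 2 and PyMT bone marrow were lowest. The difference was 3.55 (SE 0.45), or 11.7-fold (limma adjusted p = 6.54e-05).

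Egr2, which is needed for myelin formation and is also expressed by activated macrophages, read 10.07, 8.56, 8.45 and 8.32 in PyMT BrM 1 to 4 and 10.05 and 8.86 in EO771 BrM. Spleen/bone marrow arrays lay between 4.70 and 6.61 (median 5.95). PyMT BrM 1 and EO771 BrM 1 formed the upper end and the other 4 BrM lay within 1 log2 unit of each other. The difference of 3.32 (SE 0.38) passed the limma test (adjusted p = 2.28e-05).

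Egr3, which EGR1 and NFAT factors induce in lymphocytes, did not pass the test in either direction. It measured 7.94, 6.90, 6.35 and 6.76 in PyMT BrM 1 to 4 and only 6.08 and 5.70 in EO771 BrM. The spleens read 8.21, 5.23 and 8.21 in PyMT mice and 9.01 and 8.53 in naïve mice, and bone marrow read 6.22 in the PyMT mouse and 6.57 and 6.61 in naïve mice. The highest values were in spleen. Every spleen except PyMT spleen 2 was above every BrM, whereas BrM and bone marrow overlapped. B cell markers were likewise highest in the other 4 spleens, with list means of 7.49 to 8.09. They averaged 5.49 in PyMT spleen 2, 5.29 to 6.21 in bone marrow and 3.71 to 4.39 in BrM. Unlike Egr3, these markers put every BrM below bone marrow. Their part in the Egr3 values was not tested. Against all controls the difference was -0.70 (SE 0.54, limma adjusted p = 0.516), and it stayed negative and uncalled without PyMT spleen 2 (adjusted p = 0.238). Its second, dimmer probe gave 4.53 to 4.83 in BrM and 4.51 to 5.06 in spleen/bone marrow (difference -0.23, limma adjusted p = 0.401).

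Nr4a1, an orphan nuclear receptor induced in activated myeloid cells and required for a class of monocytes, gave 1.70 to 3.79 in BrM and 2.22 to 4.28 in spleen/bone marrow. All but 1 of these 14 values lay below the array median, where signal over background is small, and the comparison did not pass (difference -0.17, SE 0.34, 95% CI -0.89 to 0.56, limma adjusted p = 0.843). Ier2, a nuclear protein induced by the same stimuli, read 6.48, 6.62, 5.81 and 5.75 in PyMT BrM 1 to 4 and 6.57 and 6.29 in EO771 BrM, against 4.25 to 6.17 (median 4.78) in the controls. The highest control was PyMT spleen 2, which lay above PyMT BrM 3 and 4. With all arrays Ier2 missed the threshold (difference 1.26, SE 0.31, limma adjusted p = 0.0121), and without PyMT spleen 2 it passed (1.42, adjusted p = 0.00286), as it did without naïve spleen 2 (1.36, adjusted p = 0.00806).

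The choice of control tissue was examined next, in a fit with all 6 conditions. Against spleen alone 6 members were called higher (Fos, Fosb, Jun, Egr1, Egr2 and Atf3), where 4.61% of all genes were. Against bone marrow alone 5 were called (the same without Atf3), where 5.46% of all genes were. These comparisons share the BrM arrays. Egr3 differed by -1.56 against spleen (95% CI -2.68 to -0.43, limma adjusted p = 0.0717) and by 0.04 against bone marrow (95% CI -1.31 to 1.38, limma adjusted p = 0.984). Between the control tissues themselves no member was called in spleen against bone marrow, where 0.00525% of all genes were higher and 0% lower, and 1 member was higher at an unadjusted p under 0.05, where 9.36% of all genes were. That member was Egr3, at 1.59 (SE 0.63, limma adjusted p = 0.232), which passed without PyMT spleen 2 (2.09, adjusted p = 0.00275). Egr1 reached 1.58 without that array (adjusted p = 0.0125), against 1.17 with it (limma adjusted p = 0.325).

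Tumor-bearing and naïve mice could be compared within spleen. Egr2 measured 5.73, 4.91 and 5.03 in PyMT spleens and 6.61 and 6.23 in naïve spleens. The difference was -1.20 (95% CI -2.32 to -0.07), but it did not pass (limma adjusted p = 0.229). Bone marrow of the PyMT mouse was lower too, at 4.70 against 6.47 and 6.17 in naïve bone marrow, a comparison with 1 array on one side. For Egr1 the PyMT spleens read 8.89, 6.45 and 8.97 and the naïve spleens 9.14 and 9.32, and PyMT bone marrow read 6.70 against 8.31 and 8.29. Every PyMT spleen lay below both naïve spleens for Egr1, Egr2 and Egr3, with PyMT spleen 2 the lowest. For the other members PyMT and naïve spleens overlapped. This order rests on 3 and 2 arrays, and no share of all genes is given for it. It is therefore not read as a result about these genes.

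Each model was then set against its own controls. PyMT BrM exceeded PyMT spleen/bone marrow for 5 members (Fos, Fosb, Jun, Egr1 and Egr2), where 3.77% of all genes were higher. EO771 BrM exceeded naïve spleen/bone marrow for the same 5 members, where 2.59% of all genes were higher. With the title code as a replicate block over 3 BrM and 3 spleens of PyMT mice, none of these 5 PyMT calls remained (limma adjusted p of 0.0115 for Egr2 to 0.0669 for Egr1), with differences of 2.05 for Jun to 3.36 for Fosb. The differences in PyMT without the block were 2.99 for Fos, 4.22 for Fosb, 2.70 for Jun, 3.85 for Egr1 and 3.76 for Egr2. In EO771 they were 4.56 for Fos, 5.45 for Fosb, 3.16 for Jun, 3.45 for Egr1 and 3.09 for Egr2. Atf3 missed the threshold in both (2.35, limma adjusted p = 0.0510 in PyMT and 4.11, limma adjusted p = 0.0112 in EO771). Without EO771 BrM 1 the EO771 call held for Fos alone, and without EO771 BrM 2 for Fos and Egr2, although the 5 differences stayed between 2.49 and 5.50. The EO771 call of Egr1 was also lost without naïve bone marrow 1, naïve bone marrow 2, naïve spleen 1, PyMT BrM 2 or PyMT BrM 4, where the limma adjusted p lay between 0.0113 and 0.0209.

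**Figure D2:**
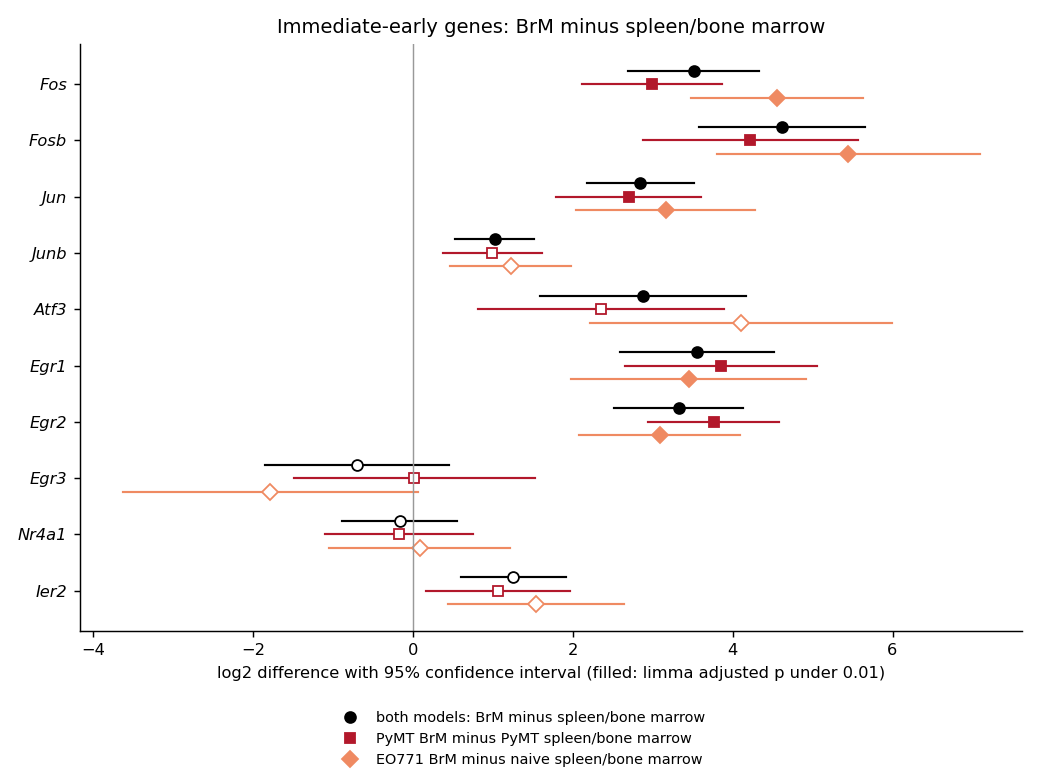
Log2 difference (horizontal axis) of each gene with its 95% confidence interval, for BrM minus spleen/bone marrow over both models, PyMT BrM minus PyMT spleen/bone marrow, and EO771 BrM minus naïve spleen/bone marrow; filled symbols had a limma adjusted p under 0.01. Intervals for Fos, Fosb, Jun, Egr1 and Egr2 lie above 0 in all 3 comparisons, and those for Egr3 and Nr4a1 reach or cross 0.

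No member was called in the interaction test between models, which asked whether the PyMT difference departed from the EO771 difference and called 0.0577% of all genes higher and 0.11% lower. At an unadjusted p under 0.05 no member was higher, where 5.12% of all genes were, and 1 was lower, where 4.68% were. This was Fos, with an interaction of -1.56 (95% CI -2.95 to -0.18, limma adjusted p = 0.492). The intervals were wide, as for Atf3, where it ran from -4.19 to 0.68. Setting PyMT BrM directly against EO771 BrM also called no member, where 0.819% of all genes were higher and 1.12% lower, and 2 members were lower at an unadjusted p under 0.05, where 9.73% of all genes were.

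The 2 members were Fos, with a difference of -1.59 (95% CI -2.74 to -0.44, limma adjusted p = 0.104), and Atf3, with -2.10 (95% CI -4.15 to -0.05, limma adjusted p = 0.233). Without PyMT BrM 1 the differences were -1.99 for Fos (adjusted p = 0.0282) and -3.02 for Atf3 (adjusted p = 0.0126). Without both PyMT BrM 1 and PyMT spleen 2, a setting chosen after seeing the data, Fos (adjusted p = 0.00847) and Atf3 (adjusted p = 0.00368) were called lower in PyMT BrM. Egr3 ran the other way, at 1.10 (95% CI -0.46 to 2.65, limma adjusted p = 0.438). For 7 members both EO771 BrM lay above PyMT BrM 2, 3 and 4, an order found for 20.7% of all genes. This order leaves out PyMT BrM 1, which stood high in these members, so it only describes their values. PyMT BrM 1 was the highest PyMT BrM for 8 of the 10, as for 25.8% of all genes. Neutrophil markers split the BrM arrays in the same way, with list means of 6.40 in PyMT BrM 1 and 7.57, 8.64 and 7.86 in PyMT BrM 2, 3 and 4, against 6.64 and 6.42 in EO771 BrM 1 and 2. T cell markers averaged 3.80 in PyMT BrM 1 and 4.30 to 4.95 in PyMT BrM 2 to 4, against 3.78 and 3.58 in EO771 BrM. Monocyte and macrophage markers did not follow this split. Monocyte markers averaged 7.98 in PyMT BrM 1, 8.17, 8.44 and 8.55 in PyMT BrM 2, 3 and 4, and 8.87 and 9.05 in EO771 BrM. Macrophage markers averaged 10.30 in PyMT BrM 1, 9.98 to 10.34 in PyMT BrM 2 to 4, and 10.23 and 10.15 in EO771 BrM. The part of these markers in the order of the BrM arrays was not tested.

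Codes in the array titles (P1, P2 and PM1) appear on a PyMT BrM and on a PyMT spleen, which may mark tissue of the same mouse. For the 5 genes without overlap between BrM and the other tissues a higher value in BrM within each code was given in advance, and only the sizes are described. In P1, P2 and PM1, in that order and in log2 units, BrM minus spleen came to 3.25, 1.95 and 2.69 for Fos. It came to 2.82, 5.10 and 2.18 for Fosb and to 1.98, 2.49 and 1.69 for Jun. The values were 1.95, 5.28 and 2.44 for Egr1 and 2.72, 3.65 and 3.30 for Egr2. Of these 5 genes, Jun varied least between codes and Egr1 most, with its highest value in P2, the code of PyMT spleen 2. Junb (0.28, 1.31 and 0.60) and Ier2 (1.36, 0.46 and 1.47) were above 0 in each code too. Egr3 was lower in BrM in P1 and PM1 (-1.87 and -1.46) and higher in P2 (1.67). Atf3 differed by 1.78 in P1, 2.95 in P2 and -0.43 in PM1. The correlation of deviations between arrays of the same code lay near 0, which cannot exclude a shared mouse with so few arrays. The codes were used as pairs only in an alternative fit.

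**Figure D3:**
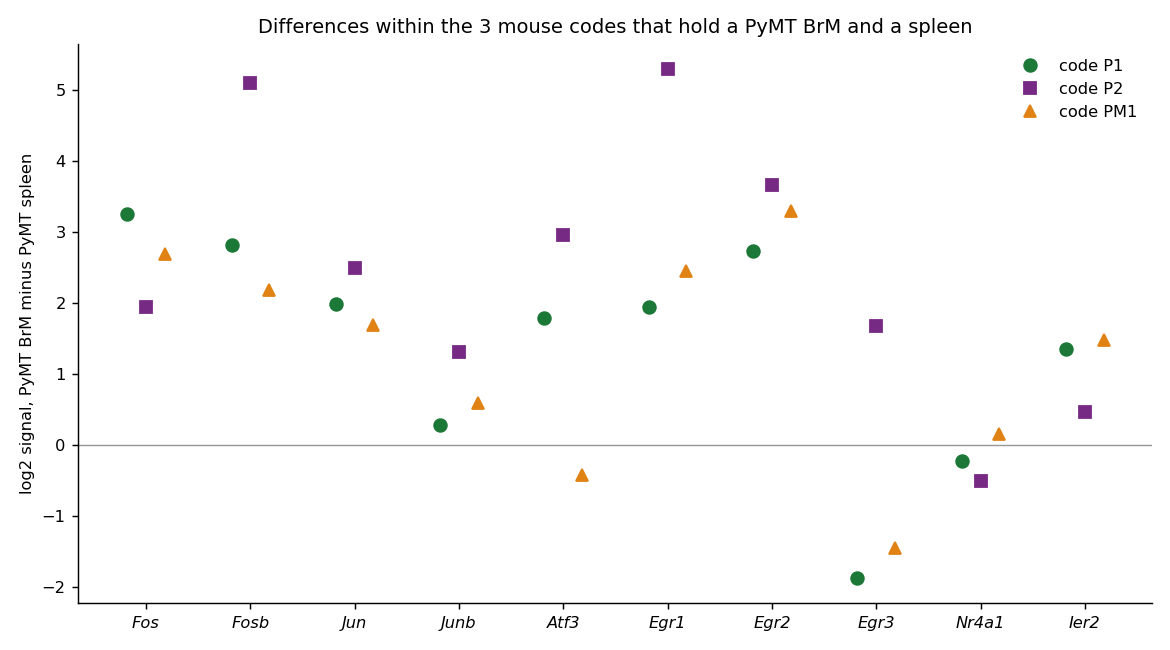
PyMT BrM minus PyMT spleen in log2 signal (vertical axis) for each gene within the title codes P1, P2 and PM1, 1 symbol per code. Fos, Fosb, Jun, Junb, Egr1, Egr2 and Ier2 lie above 0 in all 3 codes, and Egr3 is below 0 in 2 of them.

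The partners, relatives, inhibitors and targets of these factors were counted in the same comparison, where 4.89% of all genes were higher and 4.13% lower. Of 16 other bZIP factors that can pair with FOS or JUN proteins, 1 was higher and none lower in BrM: Batf2, a basic leucine zipper partner of JUN in activated macrophages, at 7.73 ± 0.72 in BrM and 5.33 ± 0.55 in spleen/bone marrow (SD, n = 6 and 8; difference 2.40, limma adjusted p = 8.65e-05). The closest relatives of the members did not pass, with differences of 0.25 for Fosl2 and -0.17 for Jund. Fosl2 had a bright probe, with a mean of 10.4 in BrM and 10.1 in spleen/bone marrow, and Fosl1 was not analysed here.

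Among 17 other immediate-early transcription regulators 3 were higher and 1 lower. Ier3, an early-response survival gene, differed by 2.73 (limma adjusted p = 4.88e-05). Nab2, a corepressor that binds EGR1 and EGR2 and is induced by them, differed by 1.09 (limma adjusted p = 0.00278). Cebpb, a myeloid bZIP factor outside AP-1, differed by 0.92 (limma adjusted p = 0.00983). Klf2, a factor linked to quiescence in leukocytes, fell by 1.94 log2 units (limma adjusted p = 0.00702). The relatives Nr4a2 (1.59, limma adjusted p = 0.0107), Egr4 (0.17) and Nr4a3 (-0.04) did not pass, and Egr4 was dim in both groups.

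Feedback inhibitors are genes that the same stimuli induce and that then shut the response down. Of 24 measured, 6 were higher in BrM and 1 lower. Rgs1, which damps G protein signaling, had the widest difference (4.51, SE 0.88, limma adjusted p = 0.00243). Trib1, a pseudokinase that promotes degradation of C/EBP factors, differed by 2.25 (limma adjusted p = 0.000106), and Spred1, an inhibitor of RAS signaling, by 2.00 (limma adjusted p = 0.000455). Gadd45a, a DNA damage response gene, fell by 1.75 log2 units (limma adjusted p = 0.00182). Of 17 upstream MAP kinase and serum response factor pathway genes, 2 were higher (Elk3 by 1.43 and Rps6ka3 by 0.97), where 4.89% of all genes were. Another 2 were lower (Mrtfa by -1.45 and Mapk14, the p38 alpha kinase, by -0.99), where 4.13% of all genes were.

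Of 14 genes known as AP-1 or EGR targets, 4 were higher in BrM, where 4.89% of all genes were, and none was lower. The list was chosen with earlier results of these data known, so the count only describes these genes. Mmp13, a collagenase whose promoter carries an AP-1 site, averaged 11.3 ± 0.86 in BrM and 5.51 ± 0.43 in spleen/bone marrow (SD, n = 6 and 8; difference 5.76, limma adjusted p = 1.31e-08). Ccl2, a monocyte-attracting chemokine, differed by 4.74 (limma adjusted p = 1.57e-05). Timp1, an inhibitor of metalloproteinases, differed by 4.22 (limma adjusted p = 4.95e-08). The fourth was Plau, the urokinase gene (2.03, limma adjusted p = 0.00484), named after its value was seen, and the other 10 genes of the list did not pass.

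**Figure D4:**
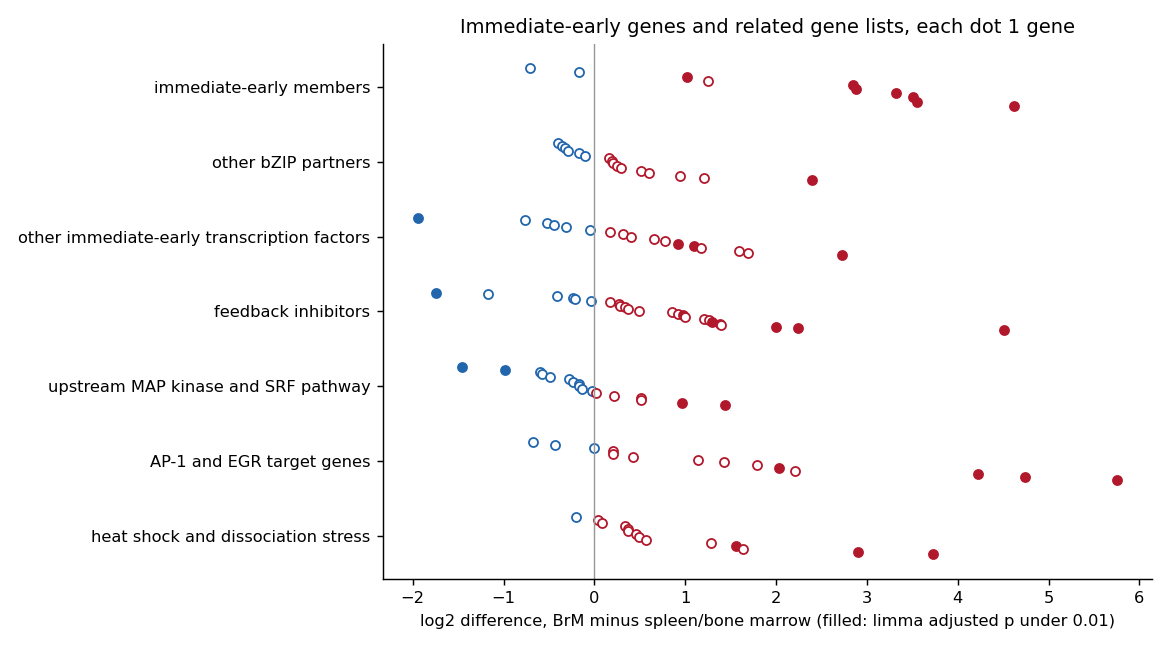
BrM minus spleen/bone marrow in log2 units (horizontal axis) for each gene of 7 lists, 1 dot per gene, filled where the limma adjusted p was under 0.01; red is higher and blue lower in BrM. Of the immediate-early genes 7 of 10 are filled and higher, against 1 of 16 other bZIP partners and 3 of 14 heat shock genes. Of all genes 4.89% were higher by the same test.

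Dissociation of solid tissue is a known source of these transcripts, and BrM were the only solid tumors among the samples. Of 14 heat shock and dissociation stress genes, 3 were higher in BrM and none lower, where 4.89% of all genes were higher and 4.13% lower. They were Hspa1a (3.72, limma adjusted p = 0.000339) and Hspa1b (2.90, limma adjusted p = 0.000498), the inducible HSP70 genes, which are near-identical in sequence so that their probes may share signal, and Hspb1 (1.56, limma adjusted p = 0.000275), a small heat shock protein gene. The mean over the list was 7.10 to 7.78 in BrM and 6.03 to 6.88 in spleen/bone marrow, without overlap. PyMT BrM 1 was the highest array for this mean (7.78) and for the mean over the 10 members (9.66). The list mean was 7.10 to 7.78 in PyMT BrM against 6.03 to 6.51 in PyMT spleen/bone marrow, and 7.29 to 7.47 in EO771 BrM against 6.22 to 6.88 in naïve spleen/bone marrow, without overlap in either model. Against its own controls, PyMT BrM had 3 of the 14 genes called higher, where 3.77% of all genes were. EO771 BrM, with 2 arrays, had none, where 2.59% of all genes were higher. Tissue and its dissociation cannot be told apart in this design.

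**Figure D5:**
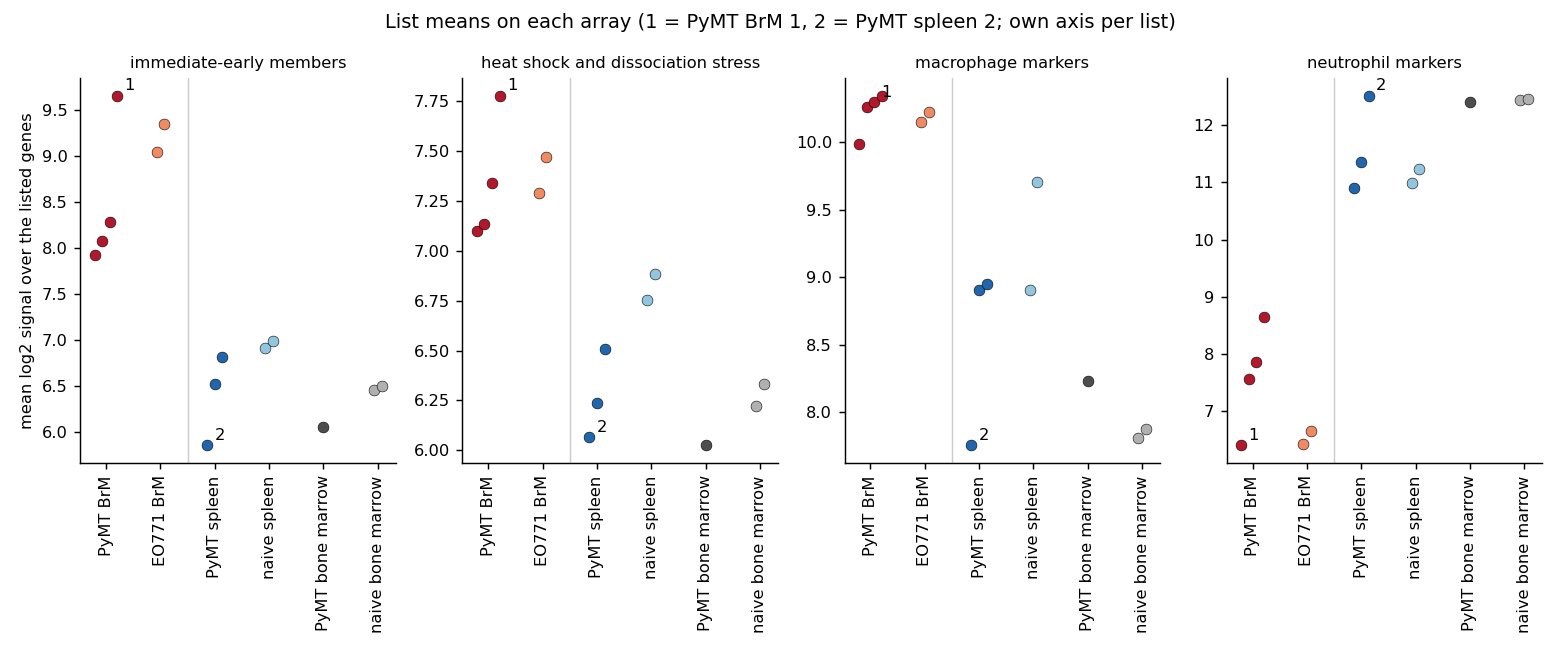
Mean log2 signal (vertical axis, its own range for each list) of the immediate-early genes, the heat shock and dissociation stress list, macrophage markers and neutrophil markers, 1 dot per array by condition, with PyMT BrM 1 and PyMT spleen 2 numbered. BrM lies above the other tissues for the first 3 lists and below them for neutrophil markers, where PyMT spleen 2 sits with bone marrow.

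Markers of other cells that the sorted samples could hold were examined as well. In BrM against spleen/bone marrow 4.89% of all genes were higher and 4.13% lower. Over 13 carcinoma cell markers the mean was 4.51 to 5.20 in PyMT BrM and 4.04 to 4.11 in EO771 BrM. It was 3.78 to 4.11 in PyMT spleen/bone marrow and 3.50 to 3.79 in naïve spleen/bone marrow. Of the 13 markers, 2 were higher in BrM over both models and none was lower. They were the keratin gene Krt8 (7.66 in BrM and 4.56 in spleen/bone marrow) and the E-cadherin gene Cdh1 (6.90 in BrM and 5.44 in spleen/bone marrow). Over 13 brain cell markers the mean was 4.31 to 5.23 in BrM and 4.07 to 4.73 in spleen/bone marrow, with Aldoc, an astrocyte enzyme gene, higher (2.18) and Mbp, the myelin basic protein gene, lower (-1.07). None of 7 B cell, 8 T cell and 6 erythroid markers was higher, and 3, 2 and 4 of them were lower. Of 10 monocyte markers 4 were higher and 1 lower, and of 10 reference genes 1 was higher and none lower. The part of these cells in the differences of the members was not tested.

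Genes with the most similar profiles were found for each member by the root mean square difference over the 14 arrays after centring, among 11699 genes with signals above the array median. The closest to Fos was Niban2 (0.47), to Fosb Cdkn1a (0.62), to Jun Lrp12 (0.45), to Junb Siah2 (0.27) and to Atf3 Mtss1 (0.78). For Egr1 and Egr2 it was Tubb6 (0.34 and 0.58), and for Egr3 Fam167a (0.44). For Nr4a1 it was Syvn1 (0.40) and for Ier2 Pcnx4 (0.41). Within the 3 nearest genes stood Msr1, a macrophage scavenger receptor, for Fos, Zfp36, which promotes decay of cytokine mRNA, for Junb, and Ier3 for Egr2. Among the members themselves the closest pairs were Junb with Ier2 (0.59) and Egr1 with Egr2 (0.63). These values describe differences over arrays that share the tissue groups. They are not scaled to the spread of a gene, so genes that varied little come out close. The SD over the 14 arrays was 0.67 for Junb, 0.87 for Ier2 and 0.66 for Nr4a1, against 2.03 for Egr1 and 1.86 for Egr2. A small value for the first 3 of these genes therefore need not mean a parallel profile.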

How the data were processed

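Each array measured RNA of sorted GFP+CD11b+ cells on an Illumina MouseWG-6 BeadChip. The deposited values were log2 signals, which the authors made in GenomeStudio 2011.1 and limma, per the submitters' processing notes. Their sorted values were equal across arrays to within 0.0019, as after quantile normalization, and the log base was read from their range (-1.68 to 14.58). Background correction is not given in the sources used here. Array number, not read depth, limited precision. No further normalization was applied.

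Of 45281 probes, 34885 had 1 gene symbol, 18 several and 10378 none. The probe with the highest mean led each gene. Two-group, 4-group and 6-condition models were fitted with limma 3.58.1 (R 4.3.3) over all probes, and adjusted p (Benjamini-Hochberg) under 0.01 was the threshold, after a self-test on simulated data. Groups came from the sample labels. All members were named, plus up to 3 called genes in each direction from each list, relatives in the families of the members, and the 3 nearest genes by profile. The members and lists were chosen with earlier results of these data known. Alternatives covered scaling, dim probes, variance model, weights, the methods' t-test, threshold, probe choice, control tissue, blocks and leaving out arrays. Whether title numbers or codes pair the arrays could not be settled, because deviations were taken from the means of few arrays. Correlations of deviations were -0.07, -0.10 and -0.08 for the same number, and -0.02, -0.10 and -0.02 for the same code.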

Additional observations from a re-analysis of the deposited data

Results flagged for a closer look

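Each gene was screened in PyMT BrM (4 arrays), all BrM (6), spleen (5) and spleen/bone marrow (8), which made 40 groups that share arrays. In each group the gap between an extreme array and its neighbor was set against the range of the group. Chance alone passes this comparison in about 1 in 20 groups. Here 3 groups passed, all of them in spleen or PyMT BrM. Egr1 in spleen was 6.45 in PyMT spleen 2, 2.44 log2 units below the next of 5 spleens. Egr3 in spleen was 5.23 in the same array, 2.98 below the next. Egr2 in PyMT BrM was 10.07 in PyMT BrM 1, 1.51 above the next of 4 arrays. PyMT spleen 2 also stood apart in cell type markers, with list means of 12.51 for neutrophils (10.90 to 11.37 in the other 4 spleens), 5.49 for B cells (7.49 to 8.09) and 7.76 for macrophages (8.90 to 9.71), and their part in these gaps was not tested.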

How the results depend on the processing

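Across 32 alternatives, the higher call in BrM against spleen/bone marrow held in all 32 for Fos, Fosb, Jun and Egr2, in 31 for Egr1, 22 for Atf3 and 13 for Junb, and Ier2 was called in 8. The number of members called was 4 to 8. The mouse code as a replicate block gave 4 (Fos 2.46, Fosb 3.35, Jun 2.22 and Egr2 3.38), with limma adjusted p of 0.0202 for Egr1, 0.170 for Atf3 and 0.155 for Junb. The same replicate block over 3 BrM and 3 spleens of PyMT mice called 0 members in PyMT, with limma adjusted p of 0.0115 for Egr2 to 0.0669 for Egr1, and Egr3 at -0.55. The title number as a replicate block called 7. The labels do not say that codes or numbers mark mice.

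Leaving out 1 array at a time gave 1 to 6 members called in EO771 (1 without EO771 BrM 1, 2 without EO771 BrM 2) and 0 to 1 higher in spleen against bone marrow (Egr3, without PyMT spleen 2). Small differences that were never called changed sign. In these refits Nr4a1 ran from -0.32 to 0.12 over both models, from -0.47 to 0.22 in PyMT, from -0.12 to 0.33 in EO771 and from -0.55 to 0.14 for the difference between models. Egr3 in PyMT ran from -0.56 to 0.43, and the model difference of Egr1 from -0.029 to 0.81. In spleen against bone marrow the ranges were -0.073 to 0.39 for Fos, -0.26 to 0.44 for Jun, -0.021 to 0.35 for Junb, -0.49 to 0.073 for Atf3, -0.047 to 0.49 for Nr4a1 and -0.15 to 0.87 for Ier2.

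Centring on reference genes moved the median of all probes to -0.34, called 6 members (Junb 0.69, limma adjusted p = 0.0478), and turned Egr3 in PyMT to -0.40 and Nr4a1 in EO771 to -0.16. With bone marrow arrays only as controls, Egr3 was 0.16. Leaving out PyMT spleen 2 and PyMT BrM 1 together, chosen after seeing the data, called 6 members over both models, 2 lower in PyMT BrM against EO771 BrM (Fos and Atf3) and 2 higher in spleen against bone marrow (Egr1 and Egr3). Egr3 in PyMT was then -0.88, the model difference of Egr1 was -0.31, and in spleen against bone marrow Fos was -0.073, Atf3 0.073 and Ier2 -0.15. The cause of these changes was not tested.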
